A study of Homo sapiens with 6 samples.

Results

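Sprouty and SPRED proteins are brakes on the RAS-ERK pathway, and 6 of their genes (SPRY1, SPRY2, SPRY4, SPRED1, SPRED2 and SPRED3) were followed here together with ETV4 and ETV5, a pair of ETS transcription factors whose mRNA is commonly read as an output of the same pathway. The members were all 8 named genes, taken by gene name from the 62252 genes summed in each library. RNA came from K562 cells, an erythroid leukemia line that grows in suspension and carries the BCR-ABL1 fusion kinase. The DMSO group (n = 3) received the solvent alone, and the Chelator group (n = 3) received 10 µM 21H7, an iron chelator that enters cells, overnight. The submitters describe the 3 libraries of each group as biological replicates of this 1 cell line.

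Growth factor receptors and BCR-ABL1 load RAS with GTP, RAS activates the RAF kinases, and RAF activates MEK and then ERK. Active ERK raises transcription of immediate early genes, and it also raises transcription of its own brakes, which is why Sprouty and SPRED mRNAs belong to its feedback. Sprouty proteins act near the receptor, through GRB2, CBL and RAF, while SPRED proteins bring neurofibromin (NF1), a RAS GTPase-activating protein, to the membrane. Capicua (CIC) is a repressor that holds ETV4, ETV5 and several of the brakes down until ERK inactivates it.

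The libraries held between 78.6 and 101.1 M (1e+06) estimated counts. The treatment was visible in TFRC, the transferrin receptor, which rose from 45810 ± 7430 to 338900 ± 14800 normalized counts (SD, n = 3 each). Normalized counts are counts scaled for library depth and for the average length of a gene's transcripts, and TPM is a level per transcript length. All 12 erythroid markers were detected, with a summed level of 12800 to 14100 TPM in DMSO and 19700 to 20800 TPM in Chelator. Of these, 6 passed an adjusted p of 0.05 as higher and 4 as lower, beside 19.5% and 18.3% of all genes. The 6 included TFRC, the globin genes that make up most of the sum and ALAS2, the first enzyme of erythroid heme synthesis (log2 fold change 1.00). The 4 were KLF1 (log2 fold change -0.72), EPOR (-0.44), NFE2 (-0.40) and TAL1 (-0.28). The 6 megakaryocyte markers summed to 4.46 to 5.15 TPM in DMSO and 7.56 to 9.14 TPM in Chelator, with PF4 at 0 in every library. Of the 4 that were tested, ITGB3, an integrin subunit of platelets, was called (192.8 ± 20.1 to 746.2 ± 55.5 normalized counts, log2 fold change 1.95) and its partner ITGA2B passed at 0.65. The 9 markers of other cell types summed to 84.1 to 91.1 TPM and 73.2 to 81.8 TPM, with MS4A1 at 0 and EPCAM, which fell by 0.48 on the log2 scale, as the largest term. Of the 8 tested, 5 passed as higher and 2 as lower, beside 19.5% and 18.3% of all genes. The 3 called were the myeloid gene MPO (0.718 ± 0.625 to 184.4 ± 57.4 normalized counts), the T cell gene CD3E (10.3 ± 4.57 to 40.4 ± 7.18) and the collagen gene COL1A1 (162.2 ± 23.7 to 491.8 ± 64.8), all higher. MPO passed the filter of a total above 10 only through Chelator, where it was high, so its values are given as a description. The part of these marker shifts in the results was not tested. The libraries also differed in fragment length. The median gap between transcript length and Salmon's effective length, which follows the fragment length, was 252 to 264 bases in DMSO and 200 to 218 bases in Chelator, and a difference in fragment length cannot be told apart from the treatment.

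In DMSO cells the 8 genes spanned a wide range of levels. ETV4 was the highest, at 54.2 ± 4.48 TPM (SD, n = 3), and SPRED2 followed at 26.1 ± 1.09 TPM. ETV5 stood at 20.5 ± 2.57 TPM, SPRED1 at 13.9 ± 1.55 TPM and SPRY4 at 9.46 ± 1.13 TPM. The remaining genes were scarce, with SPRY2 at 2.06 ± 0.183 TPM, SPRED3 at 0.552 ± 0.273 TPM and SPRY1 at 0.378 ± 0.186 TPM. Only the neighbours SPRED3 and SPRY1 had overlapping ranges in DMSO. In Chelator the order kept its top and bottom, but SPRY4 (16.6 ± 0.931 TPM) stood above SPRED1 (10.4 ± 0.519 TPM), and the ranges of SPRED2 (28.2 to 31 TPM) and ETV5 (25.8 to 28.5 TPM) overlapped, as did those of SPRED3 and SPRY1. SPRY4 was thus the main Sprouty mRNA and SPRED2 the main SPRED mRNA of these cells in both groups.

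**Figure D1:**
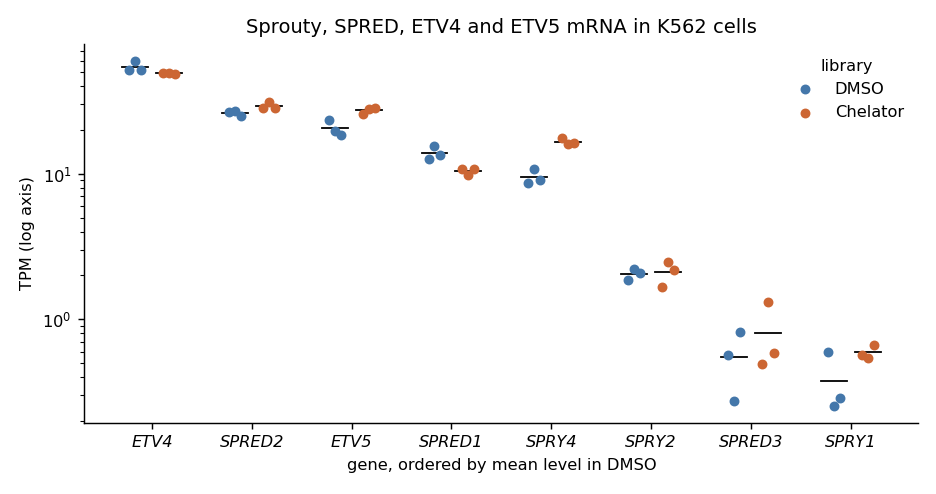
Level of each gene in TPM (log axis) in the 3 DMSO libraries (blue) and the 3 Chelator libraries (orange), with the mean of each group as a black line and genes ordered by their DMSO mean. SPRY4 rises from 8.60 to 10.7 TPM to 15.9 to 17.7 TPM and passes SPRED1, which falls from 12.6 to 15.6 TPM to 9.85 to 10.8 TPM, while the points of SPRY2, SPRED3 and SPRY1 overlap.

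The question for each gene was whether its mRNA differed between iron-chelated and control cells. With DESeq2's Wald test and Benjamini-Hochberg adjustment over all genes, 4 of the 8 members passed an adjusted p of 0.05: SPRY4 and ETV5 rose, and SPRED1 and ETV4 fell. The same threshold was passed by 19.5% of all 24542 genes with an adjusted p in the direction of a rise and by 18.3% in the direction of a fall, so a count of 2 in each direction among 8 genes is near the background. None of the 8 was called, that is, none also changed by more than 1 on the log2 scale, against 10.8% of all genes (8.18% higher and 2.6% lower). The same 4 members were below an unadjusted p of 0.05 in DESeq2, and edgeR's quasi-likelihood test also called 0, with 3 below an adjusted p of 0.05. The normalized counts of the groups did not overlap for 2 members that were higher and 2 that were lower in Chelator, and over all genes tested for 24.8% and 22.5%. The median log2 fold change of the 8 was 0.25, beside 0.02 over all genes tested. In bulk RNA, a change in the number of cells that express a gene and a change in its RNA per cell cannot be told apart.

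SPRY4, a feedback inhibitor that acts between the receptor and RAF, had the largest change of the 8 relative to its error. Its normalized count was 3222, 3391 and 3334 in DMSO and 6271, 5327 and 5595 in Chelator. Every Chelator library was thus above every DMSO library, and the spread within each group was small beside the gap. The log2 fold change was 0.79 (SE 0.085; DESeq2, adjusted p = 3.81e-19), a 1.73-fold rise with a 95% interval of 1.54 to 1.94, which stays under the 2-fold line. Most SPRY4 mRNA was SPRY4-202, the 2-exon transcript that held 86.6% ± 2.33 of SPRY4 TPM in DMSO and 87.0% ± 2.21 in Chelator (SD, n = 3). The gene spans chr5:142310427-142326455 on the minus strand. The 250 bases before the start of SPRY4-202, with the start base itself, are shown because SPRY4 had the largest change relative to its error. They were read from hg38 on the minus strand (chr5:142325021-142325271), since RefSeq places its SPRY4 window (chr5:142324198-142324497) at another start, downstream of that of SPRY4-202. Capitals mark a GC box (GGGCGG on either strand, here CCGCCC) and 3 copies of CCCATTCA:
SPRY4: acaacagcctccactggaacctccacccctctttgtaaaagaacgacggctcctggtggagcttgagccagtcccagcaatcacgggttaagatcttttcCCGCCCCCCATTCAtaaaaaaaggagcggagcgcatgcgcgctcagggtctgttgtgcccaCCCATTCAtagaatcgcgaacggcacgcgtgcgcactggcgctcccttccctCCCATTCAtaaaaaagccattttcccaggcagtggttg

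The first copy of CCCATTCA directly follows the GC box without overlap. The repeat was noticed on reading the window and was not among the motifs searched. Its reverse complement, TGAATGGG, differs from the CIC octamers that were searched, TGAATGAA and TGAATGGA. Neither of these occurred in the window on either strand. Other forms of the CIC octamer were not searched, and whether TGAATGGG is a CIC site was not tested. Among 35116 RefSeq promoter windows of the same length (GRCh38.p14), 0.775% held TGAATGGG on either strand at least once and 1 window held it at least 3 times. That window belongs to SPRY4-AS1, a lncRNA that starts on the plus strand at position 142325293 and so shares this DNA with SPRY4. SPRY4-AS1 counts were 15 to 29 in DMSO and 62 to 83 in Chelator, a log2 fold change of 1.06 with an SE of 0.43 (DESeq2, adjusted p = 0.0384). Whether reads were counted by strand is not given in the sources used here. Of the 31-base sequences of SPRY4 transcripts, 0.257% occur in reverse complement in transcripts of other genes, and SPRY4-AS1 is not among these genes. GC boxes occurred in 42.7% of the windows, and a match is a description of letters, not of binding.

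SPRY1 and SPRY2, the other Sprouty genes measured here as members, did not pass the test. SPRY2 normalized counts were 299.1, 301.5 and 326.8 in DMSO and 252.3, 353.2 and 322.3 in Chelator. The Chelator libraries lay on both sides of the DMSO libraries, and the fold change was 1.00 with a 95% interval of 0.781 to 1.28 (DESeq2, adjusted p = 0.996). Most SPRY2 mRNA was SPRY2-202, with 92.7% ± 4.37 of SPRY2 TPM in DMSO and 87.1% ± 0.562 in Chelator (SD, n = 3), and the rest was SPRY2-201. Neither passed as a single transcript (adjusted p = 0.822 and 0.432). SPRY1 had few reads, with 54, 27 and 33 counts in DMSO and 59, 55 and 56 in Chelator. Its normalized counts were 63.28, 23.03 and 30.19 in DMSO and 58.06, 51.95 and 65.91 in Chelator. DMSO replicate 1 thus lay within the Chelator range. The estimate for SPRY1 was 0.61 on the log2 scale (SE 0.461, DESeq2 adjusted p = 0.326). Without DMSO replicate 1 the log2 fold change was 1.14 and SPRY1 would be called (adjusted p = 0.0337), and without each of the other 5 libraries in turn the adjusted p was 0.39 to 0.644.

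SPRED1, which links neurofibromin to RAS at the membrane and is mutated in Legius syndrome, fell. Its normalized count was 3762, 3921 and 3934 in DMSO and 3052, 2629 and 2943 in Chelator. The groups did not overlap. The log2 fold change was -0.43 (SE 0.085; DESeq2, adjusted p = 2.78e-06), or 0.742 times the DMSO level with a 95% interval of 0.661 to 0.833. The size of the fall depended on the length offset: estimated counts were 3740 to 4473 in DMSO and 2299 to 3168 in Chelator, and with this offset left out it fell by 0.89 on the log2 scale. The average effective length of SPRED1 transcripts was 4042 to 4371 bases in DMSO and 2845 to 3531 bases in Chelator, an average that weights each transcript by its estimated abundance.

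SPRED1-201, the 7-exon coding transcript of 7270 bases, stood at 9.59, 11.4 and 9.34 TPM in DMSO and at 6.17, 4.94 and 5.55 TPM in Chelator. Tested as a single transcript, a test added after the transcript values had been seen, it fell by 0.90 on the log2 scale (DESeq2, adjusted p = 1.85e-11), and it passed without each of the 6 libraries in turn. SPRED1-202 begins at nearly the same site, 12 bases downstream, but lacks the last 3 exons of SPRED1-201 and ends in an exon of its own of 416 bases (chr15:38325948-38326363, plus strand), with no coding sequence defined. SPRED1-202 was at 3.02, 3.62 and 4.04 TPM in DMSO and 4.61, 4.51 and 5.16 TPM in Chelator, a log2 fold change of 0.37 that did not pass (adjusted p = 0.196). The share of SPRED1 TPM held by SPRED1-201 was thus 73.1% ± 3.12 in DMSO and 53.1% ± 3.70 in Chelator (SD, n = 3), with no overlap of the libraries. Of all 81855 transcripts tested this way, 11.8% were higher and 11.8% lower, but among those over 4800 bases, the length class of SPRED1-201, 10.9% were higher and 23.5% lower, with a median log2 fold change of -0.17.

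The start shared by both SPRED1 transcripts is shown because the coding transcript fell and the short one did not from nearly the same start. The window is chr15:38252586-38252836 on the plus strand, from RefSeq (GRCh38.p14), with its 1 GC box in capitals:
SPRED1: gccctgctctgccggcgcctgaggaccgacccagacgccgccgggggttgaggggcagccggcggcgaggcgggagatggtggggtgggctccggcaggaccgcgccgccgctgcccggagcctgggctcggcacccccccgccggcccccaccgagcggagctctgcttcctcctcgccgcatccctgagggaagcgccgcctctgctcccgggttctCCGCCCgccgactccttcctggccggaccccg

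SPRED2, the most abundant SPRED, showed no change of the gene that passed the test. Its normalized count was 7356, 6366 and 6852 in DMSO and 7476, 7730 and 7232 in Chelator. DMSO replicate 1 lay within the Chelator range. The fold change was 1.09, with a 95% interval of 0.98 to 1.21 (DESeq2, adjusted p = 0.217). SPRED2-201, the transcript from the upstream start, made up most of the gene, at 19.6, 21.6 and 18.7 TPM in DMSO and 19.4, 20.1 and 20.4 TPM in Chelator.

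A second start of SPRED2 lies 65949 bases downstream of the first. Its transcript, SPRED2-206, has a coding sequence of 1245 bases where SPRED2-201 has 1254, and the part that differs is 17 bases at the alternative first exon in place of 26. SPRED2-206 was at 1.71, 2.37 and 2.33 TPM in DMSO and 3.62, 3.82 and 3.04 TPM in Chelator. The groups did not overlap, and as a single transcript it rose by a log2 fold change of 0.67 (DESeq2, adjusted p = 0.00769), which was lost without Chelator replicate 2 (0.63, adjusted p = 0.0561). SPRED2-208, named after its values had been seen because it uses the same first exon, had 2.2 to 6.3 counts in DMSO and 15.2 to 36.3 in Chelator. It met the minimum of 10 counts in 3 libraries only through the Chelator group, where it was high, so its values are given as a description, with no test.

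RefSeq windows at both SPRED2 start regions are shown. They are from RefSeq (GRCh38.p14), minus strand, at chr2:65432638-65432849 for the upstream start, cut where an annotated exon begins, and chr2:65366778-65367028 for the downstream start. The downstream window ends at the RefSeq start base, position 65366778, which is the start of neither transcript: SPRED2-208 starts farther downstream, at position 65366752, and SPRED2-206 at position 65366650. Capitals mark an AP-1 letter pattern (TGANTCA, a palindrome apart from its middle base):
SPRED2 upstream start: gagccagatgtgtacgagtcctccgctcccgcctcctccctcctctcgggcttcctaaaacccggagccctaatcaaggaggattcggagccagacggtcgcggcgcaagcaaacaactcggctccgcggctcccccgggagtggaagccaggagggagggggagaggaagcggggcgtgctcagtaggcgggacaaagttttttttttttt
SPRED2 downstream start: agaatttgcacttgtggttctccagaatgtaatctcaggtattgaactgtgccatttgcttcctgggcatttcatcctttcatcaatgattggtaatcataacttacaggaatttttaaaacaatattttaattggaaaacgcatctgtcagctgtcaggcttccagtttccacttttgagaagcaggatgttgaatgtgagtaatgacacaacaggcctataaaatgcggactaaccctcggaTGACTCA

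The AP-1 pattern ends on the RefSeq start base of the downstream window (chr2:65366778-65366784), upstream of the starts of SPRED2-208 and SPRED2-206, and 6.73% of all RefSeq windows of this length hold it. A further match, TGAATCA (chr2:65366738-65366744), lies beyond the printed window, between the starts of SPRED2-208 and SPRED2-206. The upstream window, as cut, held none of the motifs searched. A GC box (CCGCCC, chr2:65432553-65432558) lies beyond the cut, in the full RefSeq window. The upstream window as printed was also rich in G and C (61.8%, with 17 CpG), where the downstream window held 39.0% and 3 CpG. Besides AP-1 and GC boxes, the printed windows were searched on both strands for TGAATGAA, TGAATGGA, GGAAGGAA, CCGGAAGT, TGACGTCA and ACGTG, without a match. These letters occurred in 1.41%, 0.849%, 3.08%, 3.43%, 1.73% and 18.5% of all windows of that length, in that order. RefSeq windows were matched for 6 of the 8 members, and those of SPRY1, SPRY2 and SPRED3 are not printed.

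SPRED3, the least studied SPRED, was scarce and variable. Its normalized count was 125.7, 50.83 and 178.9 in DMSO and 102.8, 262.6 and 119.6 in Chelator. The ranges overlapped, and the change was 0.46 on the log2 scale (SE 0.432; DESeq2, adjusted p = 0.445). Its estimated counts did not overlap, with 71 to 91 in DMSO and 171 to 250 in Chelator, and without the length offset SPRED3 would be called (log2 fold change 1.11, adjusted p = 3.61e-05). The average effective length, which is the offset, was between 1600 and 4206 bases among the libraries. A 478-base transcript annotated for decay, SPRED3-203, held 50% ± 22.6 of SPRED3 TPM in DMSO and 24.1% ± 11.4 in Chelator from only 1 to 12.7 counts per library. SPRED3-201, a coding transcript of 4778 bases, had 49.7, 34.3 and 32.3 counts in DMSO and 106.1, 97.7 and 137.1 in Chelator, and as a single transcript it rose by a log2 fold change of 1.31 (adjusted p = 0.00665). SPRED3-204, a coding transcript of 4885 bases, held 20.2% ± 16.2 of SPRED3 TPM in DMSO and 20.4% ± 9.05 in Chelator and did not pass (log2 fold change 0.78, adjusted p = 0.572). SPRED3 lies 338 bases from GGN on the opposite strand, a gene with a mean of 96.5 counts that also rose, by 1.27 on the log2 scale (SE 0.406; DESeq2, adjusted p = 0.00601).

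ETV4 and ETV5, the ETS factors, moved apart. ETV5 normalized counts were 3709, 2645 and 2876 in DMSO and 3882, 3936 and 4162 in Chelator. The Chelator libraries were all above the DMSO libraries, but DMSO replicate 1 came close to them. The log2 fold change was 0.38 (SE 0.117; DESeq2, adjusted p = 0.00464), a 1.30-fold rise with a 95% interval of 1.11 to 1.52. The rise no longer passed with DMSO replicate 3 left out (0.33, adjusted p = 0.0635) or with Chelator replicate 3 left out (0.35, adjusted p = 0.0502). Nor did it pass when the mean log2 change of all genes was set to 0 (0.22, adjusted p = 0.136), a scaling that moved the median of all genes from 0.02 to -0.14.

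ETV4 normalized counts were 7894, 7658 and 7788 in DMSO and 7198, 6727 and 6794 in Chelator. The groups did not overlap, yet the gap was small. The log2 fold change was -0.17 (SE 0.067; DESeq2, adjusted p = 0.0311), or 0.888 times the DMSO level with a 95% interval of 0.81 to 0.973. The fall passed under 7 of 18 alternatives, and was between -0.35 and -0.13 in all of them. It was lost with TMM scaling (adjusted p = 0.104) and in edgeR (adjusted p = 0.112), and without any of DMSO replicate 1, DMSO replicate 3, Chelator replicate 2 and Chelator replicate 3 (adjusted p = 0.0703 to 0.102). With the trends of fold change on GC content and length removed it was -0.35 (adjusted p = 5.03e-06).

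Beneath this small change, ETV4-201 and ETV4-202 moved in opposite directions, by single-transcript tests that were added after the transcript values had been seen. ETV4-201 was at 21.2, 23.7 and 20.01 TPM in DMSO and 17.5, 13.6 and 12.1 TPM in Chelator, and fell by 0.63 on the log2 scale (DESeq2 on single transcripts, adjusted p = 0.00201). ETV4-202 was at 10.7, 9.78 and 10.4 TPM in DMSO and 15.0, 15.5 and 17.0 TPM in Chelator, a log2 fold change of 0.57 (adjusted p = 7.52e-05). Neither pair of groups overlapped, and both passed without each library in turn. The annotation gives both the same coding sequence of 1452 bases, and they differ at the 5' end, where ETV4-202 starts 669 bases downstream and lacks the noncoding first exon of ETV4-201 (chr17:43546185-43546340, minus strand). ETV4-205, which shares the first exon with ETV4-201 and was at 8.67 to 11.6 TPM in DMSO and 5.87 to 8.48 TPM in Chelator, did not pass (log2 fold change -0.46, adjusted p = 0.0809). DHX8 overlaps ETV4 on the opposite strand and fell by 0.43 on the log2 scale (SE 0.078; DESeq2, adjusted p = 2.01e-07), and 1.5% of the 31-base sequences of ETV4 occur in reverse complement in transcripts of other genes.

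ETV5 also had a short transcript that rose. ETV5-210 has 642 bases in 6 exons and no defined coding sequence, and it begins 8 bases from the start of ETV5-201 but ends within the gene at position 186095120 of chromosome 3. It was at 6.79, 6.37 and 5.70 TPM in DMSO and 11.6, 13.3 and 12.5 TPM in Chelator, a log2 fold change of 0.93 (DESeq2 on single transcripts, adjusted p = 8.29e-07). The coding transcript ETV5-201, of 4082 bases, was at 9.22, 10.4 and 9.73 TPM in DMSO and 13.4, 11.4 and 11.9 TPM in Chelator. These groups did not overlap either, but its log2 fold change of 0.28 did not pass (adjusted p = 0.053). ETV5-203, of 554 bases, was listed at 0 in 2 Chelator libraries and at 2.59 TPM in the third, beside 2.64 to 3.67 TPM in DMSO, and did not pass (adjusted p = 0.621).

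**Figure D2:**
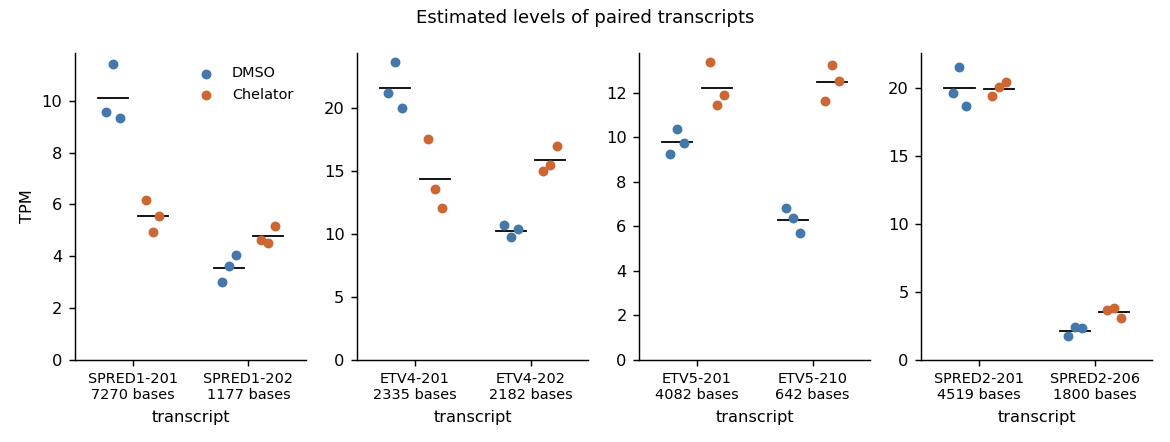
Level in TPM of paired transcripts of SPRED1, ETV4, ETV5 and SPRED2 in the 3 DMSO (blue) and 3 Chelator (orange) libraries, with group means as black lines and transcript lengths under the names. SPRED1-201 and ETV4-201 sit lower and ETV4-202, ETV5-210 and SPRED2-206 sit higher in all Chelator libraries, while SPRED2-201 overlaps.

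Transcript choice was also tested as such, with edgeR's diffSpliceDGE over transcripts with at least 10 counts in 3 libraries. Of all 11938 genes tested, 9.22% were called (adjusted Simes p under 0.05 and a share change above 5 percentage points), and of the 7 members tested 0 were called. SPRED1 came nearest, with a share change of 20 points (adjusted p = 0.205). With limma's diffSplice in place of edgeR, SPRED1 (adjusted p = 0.00146), SPRED2 (0.00221) and ETV5 (0.0132) were called, as were 3184 of all genes in place of 1101. Leaving out Chelator replicate 2 called ETV4 (edgeR, adjusted p = 0.0453) and leaving out Chelator replicate 3 called ETV5 (0.001). Short transcripts gained share within their genes generally: the median change was 0.25 on the log2 scale for transcripts up to 600 bases and 0.14 for those above 600 and up to 1200 bases, against -0.01 for those over 4800 bases. The part of this trend, and of the shorter fragments of the Chelator libraries, in the rise of ETV5-210 and the fall of SPRED1-201 was not tested.

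The members were next set beside the rest of the pathway, from gene lists read from the same fit. Of 13 genes whose mRNA commonly follows ERK activity, 7 were called higher and 0 lower, beside 8.18% and 2.6% of all genes. Their median log2 fold change was 1.49. By adjusted p under 0.05 alone, 8 passed as higher and 1 as lower, MYC (log2 fold change -0.28, DESeq2 adjusted p = 0.00219). PHLDA1, a pleckstrin homology protein, rose from 115.9 ± 14.7 to 5327 ± 667 normalized counts (log2 fold change 5.52, SE 0.135), and the immediate early factor EGR1 from 3619 ± 333 to 35640 ± 1590 (3.30, SE 0.083). The cytokine LIF (4.61, DESeq2 adjusted p = 1.23e-20), the early response gene IER3 (1.82, adjusted p = 6.79e-71) and the receptor EPHA2 (1.71, adjusted p = 1.69e-05) were called too. DUSP6, an ERK phosphatase often used as a readout beside SPRY4, had only 32 counts over all libraries and did not pass (adjusted p = 0.576). DUSP4, of the same family, had 33 ± 11.9 normalized counts in DMSO and 58.4 ± 20.3 in Chelator and did not pass (adjusted p = 0.16).

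Other brakes on the pathway moved in both directions, with 3 of 13 called higher and 1 called lower, beside 8.18% and 2.6% of all genes. Their median was 0.02 on the log2 scale. This list and that of the ERK output genes share DUSP4 and DUSP6. ERRFI1, an inhibitor of EGF receptors, rose by a log2 fold change of 2.02 (DESeq2, adjusted p = 2.78e-36), and DUSP5, a nuclear ERK phosphatase, by 2.23 (adjusted p = 1.7e-66). DAB2IP, a RAS GTPase-activating protein, was called at 2.38 (adjusted p = 0.015) from only 73 counts in all libraries, with 5.03 ± 1.29 normalized counts in DMSO and 29.9 ± 29.7 in Chelator. The count of called brakes, in both directions together, was 3 in place of 4 without DMSO replicate 2, DMSO replicate 3 or Chelator replicate 2. DUSP7, a cytoplasmic ERK phosphatase, fell by 1.18 on the log2 scale (adjusted p = 2.19e-41).

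Among 11 partners of Sprouty and SPRED proteins, 3 were called higher and 0 lower, beside 8.18% and 2.6% of all genes. The caveolin gene CAV1 (log2 fold change 1.30, DESeq2 adjusted p = 0.00252), the ubiquitin ligase gene CBLB (1.14, adjusted p = 0.0164) and the kinase gene TESK1 (1.02, adjusted p = 2.17e-10) rose. This count fell to 1 under several alternatives, such as without DMSO replicate 3 or without Chelator replicate 2. NF1, the enzyme that SPRED proteins carry to RAS, fell from 10050 ± 2110 to 6284 ± 494 normalized counts (log2 fold change -0.68, SE 0.126; DESeq2, adjusted p = 5.1e-07), in the same direction as SPRED1, without reaching the fold threshold.

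In the RAS-ERK cascade itself 0 of 19 genes were called, while 4 passed an adjusted p of 0.05 as higher and 7 as lower in DESeq2, beside 19.5% and 18.3% of all genes. MAPK3, which encodes the kinase ERK1, did not pass, with a log2 fold change of 0.10 (SE 0.094; adjusted p = 0.457). PTPN11, SOS1 and NRAS, named after their values had been seen, were the lowest of the list, with falls of 0.79, 0.76 and 0.65 on the log2 scale (adjusted p = 9.63e-21, 1.61e-17 and 1.3e-14). The 4 that passed as higher were the scaffold gene KSR1 (log2 fold change 0.69), the adaptor gene GAB2 (0.52), and the kinase genes MAP2K1 (0.45) and BRAF (0.40).

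Of 13 genes for ETS relatives, capicua and its partners, and degradation factors of ETV4 and ETV5, 0 were called, 2 passed an adjusted p of 0.05 as higher and 5 as lower, beside 19.5% and 18.3% of all genes, and the median log2 fold change was -0.09. CIC itself rose from 13010 ± 636 to 16750 ± 1080 normalized counts (log2 fold change 0.36, SE 0.076; DESeq2, adjusted p = 1.03e-05). ETV1, the third member of the PEA3 group with ETV4 and ETV5, did not pass (0.02, SE 0.143; adjusted p = 0.951).

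Receptor tyrosine kinases and their ligands, which feed the cascade, contained the largest changes of these pathway lists. Of 21 genes, 18 entered the test, 10 were called higher and 0 lower, beside 8.18% and 2.6% of all genes. FGF2 (log2 fold change -0.67) and FGFR4 (-0.48) passed an adjusted p of 0.05 as lower in DESeq2. The PDGF receptor gene PDGFRB had 1.88 ± 1.69 normalized counts in DMSO and 610 ± 79.3 in Chelator. It is counted as called, but it passed the filter of a total above 10 only through Chelator, where it was high. Its values are therefore given as a description. The VEGF receptor gene FLT1 rose from 13.7 ± 8.18 to 2249 ± 554 (log2 fold change 7.40, DESeq2 adjusted p = 5.76e-38). The ligand gene PDGFB rose from 94.6 ± 9.01 to 4366 ± 336 (log2 fold change 5.53, SE 0.127). The receptor gene KIT (2.89, adjusted p = 4.89e-14) and the hypoxia-inducible ligand gene VEGFA (2.64, adjusted p = 8.74e-143) were also called.

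**Figure D3:**
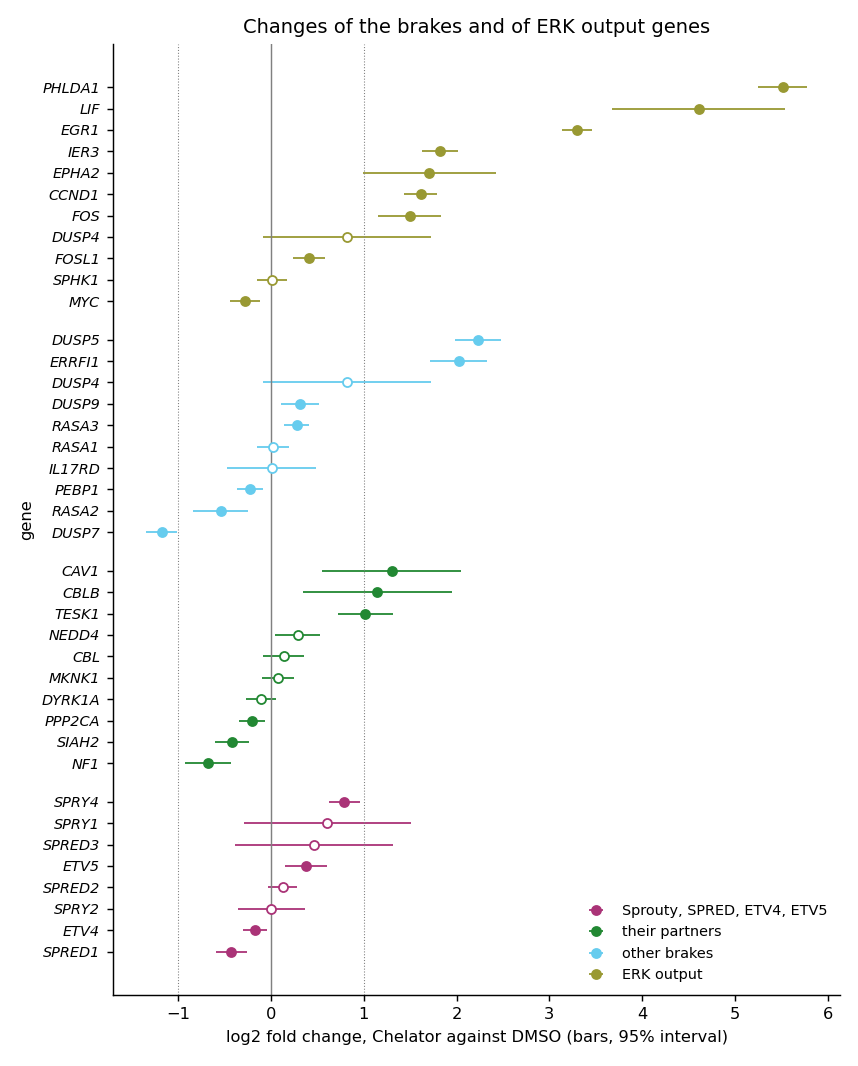
Log2 fold change of Chelator against DMSO (x axis; bars, 95% interval) for the 8 members, 10 partners, 10 other brakes and 11 ERK output genes that averaged 30 or more normalized counts. DUSP4 belongs to both the other brakes and the ERK output genes and is plotted in each. Filled points have an adjusted p under 0.05 in DESeq2, and dotted lines mark a log2 fold change of 1 in each direction. The members lie between -0.43 and 0.79, inside the dotted lines, while DUSP5, ERRFI1, EGR1 and PHLDA1 lie beyond them.

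The genes next to the members on the chromosome were compared in the same fit. NDFIP1, beside SPRY4, fell by 0.39 on the log2 scale (DESeq2, adjusted p = 1.88e-08), opposite to SPRY4, and FAM98B, beside SPRED1, fell by 0.23 (adjusted p = 0.00195). Beside SPRED2, ACTR2 had a log2 fold change of 0.19 (adjusted p = 0.0382) and MEIS1 one of -0.19 (adjusted p = 0.469). Both neighbours of SPRED3 rose, GGN as above and FAM98C by 0.61 (adjusted p = 2.23e-08). SPATA5 and ANKRD50, on either side of SPRY1, fell by 0.85 and 0.72 (adjusted p = 3.97e-17 and 1.2e-12), NDFIP2 beside SPRY2 rose by 0.33 (adjusted p = 0.000163), and TRA2B beside ETV5 fell by 0.28 (adjusted p = 0.00831). DGKG, which overlaps ETV5, had a log2 fold change of 1.29 from 4 to 19 counts per library and did not pass (adjusted p = 0.243), and SLITRK1, FGF1, TMCO5A and MEOX1 had too few counts to be tested.

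As a description of pattern, each member with enough counts was matched to the protein-coding genes whose 6 values lay closest to its own, over the 11480 genes that averaged 100 or more normalized counts, after centring on the DMSO mean. The measure was the root mean square difference of log2 normalized counts over the 6 libraries. SEC24D, TNFRSF21 and KDELR3 were closest to SPRY4 (0.0288, 0.0302 and 0.0336). IGF2BP3, LARP4B and GTF2I were closest to SPRED1 (0.0242, 0.0252 and 0.026), MARK4 to ETV5 (0.024) and NMT1 to ETV4 (0.0135). SPRED3 had no close match, with DEGS2 the nearest at 0.206.

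Across the alternative ways of processing, SPRY4 kept a log2 fold change between 0.64 and 0.84 and SPRED1 one between -0.89 and -0.34. Each passed an adjusted p of 0.05 in 17 of 18 alternatives, all but the test against a log2 fold change of 1. ETV5 passed in 14 of 18 and ETV4 in 7 of 18. SPRED2 and SPRY2 passed in 0 of 18, and SPRED3 and SPRY1 in 1 of 18 each.

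**Figure D4:**
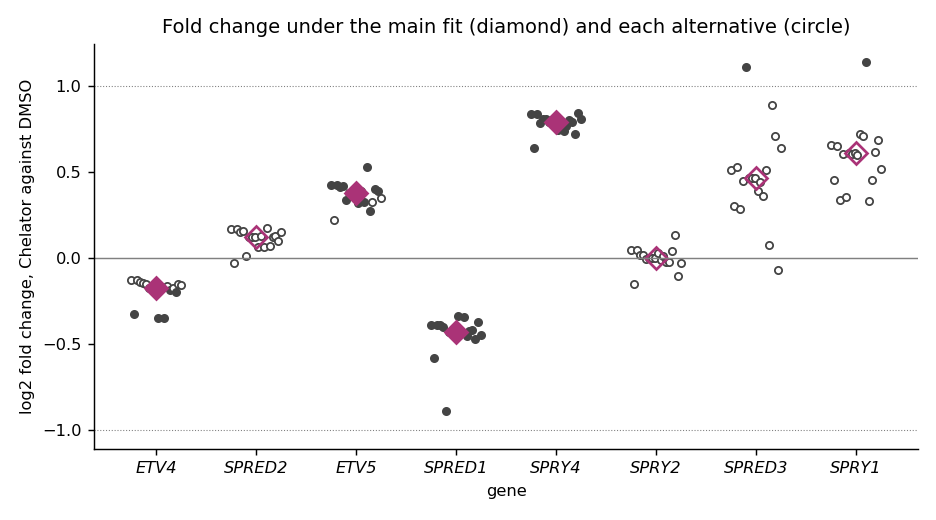
Log2 fold change of each gene (y axis) in the reported fit (diamond) and under each of 18 alternatives (circles); filled symbols have an adjusted p under 0.05, and dotted lines mark a log2 fold change of 1 in each direction. SPRY4 stays between 0.64 and 0.84 and SPRED1 between -0.89 and -0.34, while SPRY2 lies on both sides of 0 and the circles of SPRED3 and SPRY1 are spread widely.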

How the data were processed

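Polyadenylated RNA of 3 DMSO and 3 Chelator cultures was sequenced as paired-end reads. Per the labels, the authors quantified reads with Salmon 1.10.2 on hg38 (the submitters' processing notes). The deposited estimated counts and TPM values are per transcript. The transcript annotation was not given in the sources used here. Transcripts (252045) were matched by ID to GENCODE release 44: 251142 had the same version, 470 another version, and 433 no match (left out). Estimated counts were summed per gene and rounded. Genes with a total above 10 were tested with DESeq2's Wald test, with median-ratio size factors, transcript length as an offset and Benjamini-Hochberg adjustment. Called genes have an adjusted p below 0.05 and differ by more than 1 on the log2 scale. The diffSpliceDGE test of edgeR was used for transcript usage, and DESeq2 for single transcripts. The single-transcript tests of all members were added after the transcript values had been seen. Steps were tested on simulated data.

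The members and gene lists were chosen with earlier results of these data known. All 8 members are described. Of each list, every called gene is named if 6 or fewer, otherwise the 5 with the largest change among genes that averaged 50 or more normalized counts, and MAPK3, NF1 and CIC always; 1 further gene of the rule is not reported here. Transcripts with a mean share of at least 10% in either group were described, apart from those of SPRY1, which had few counts. Values are mean ± SD over 3 libraries, and intervals are 95% from the model's standard error. R 4.3.3, DESeq2 1.42.0, edgeR 4.0.16 and limma 3.58.1 were used. Within groups the libraries differed by more than sampling noise, so none was treated as a duplicate deposit.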

Additional observations from a re-analysis of the deposited data

How the results depend on the processing

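The count of members called was 1 in place of 0 without the length offset, and 0 to 1 when each library was left out in turn. The count with an adjusted p under 0.05 was 2 to 4 when each library was left out, with 2 without DMSO replicate 3 or Chelator replicate 3, and 0 in a test against a log2 fold change of 1, where SPRY4 (0.79), SPRED1 (-0.43), ETV4 (-0.17) and ETV5 (0.38) kept their values. All genes called numbered 2646 in the reported fit, 1168 with limma on log2(TPM + 0.5), 674 in the test against 1 and 2207 to 2607 with a library left out. Centring on the mean log2 change moved the median of all genes from 0.02 to -0.14, turned SPRY2 (-0.15) and SPRED2 (-0.029), and lowered ETV5 to 0.22. ETV4 no longer had an adjusted p under 0.05 with TMM scaling (-0.13), edgeR (-0.13), limma with pseudocounts of 0.5 or 0.1 (both -0.14) and no length offset (-0.15). SPRY2, near 0 throughout, also turned without the length offset (-0.008) and with at least 10 counts in 3 libraries (-0.001). SPRED3 rose to 1.11 without the offset. With a library left out, the log2 fold change was 0.33 to 1.14 for SPRY1, -0.11 to 0.13 for SPRY2, -0.07 to 0.89 for SPRED3, -0.20 to -0.15 for ETV4 and 0.28 to 0.53 for ETV5. SPRED3 turned without Chelator replicate 2, its highest library. The cause of these shifts was not tested.

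Transcript usage called 3 members in place of 0, and 3184 genes in place of 1101, with limma's diffSplice. With a library left out it called 0 to 1 member and 539 to 1063 genes, the lowest counts without Chelator replicate 3 (539) and Chelator replicate 2 (592). The order of levels was the same in normalized counts per kilobase.

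Replicate numbers are shared by the groups, but deviations of same-numbered libraries had correlations of -0.075, 0.13 and 0.101, so the numbers were not taken as pairs. A fit with the replicate number as a block called 2345 genes and 0 members, left ETV4 at -0.17 (adjusted p = 0.0725) and SPRY2 at -0.011, and for transcript usage called 923 genes and 0 members. It moved no other member across an adjusted p of 0.05.

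With 3 libraries per group, intervals for SPRY1 and SPRED3, with group means under 200 normalized counts, spanned 0.815 to 2.85-fold and 0.767 to 2.48-fold, so a change of 2-fold was not excluded there. The single transcripts rest on Salmon's division of shared reads, whose error is not in the standard errors.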

Other observations

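One RefSeq window of SPRED3 (chr19:38389541-38389840, plus strand, GRCh38.p14) held the CIC octamer TGAATGAA, 192 bases before the start, and the AP-1 letters TGACTCA, 60 bases before it. Over all 35116 windows of 300 bases, 1.65% held TGAATGAA and 7.71% held TGANTCA on either strand. No other window of a member held TGAATGAA or TGAATGGA, the CIC octamers that were searched.

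SPRY4-206, an unspliced transcript of 5349 bases annotated as a retained intron, was named after its values had been seen. It had 83.6, 98.8 and 61.4 estimated counts in DMSO and 223.2, 264.9 and 230.3 in Chelator, and as a single transcript its log2 fold change was 1.32 (DESeq2, adjusted p = 1.28e-06), beside 0.78 for the spliced SPRY4-202. The difference between the 2 was not tested.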
